A study of Mus musculus with 10 samples.

Results

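The transcriptome of neurites was set against that of soma in N2A cells (Neuro2a, a mouse neuroblastoma line that puts out neurites when serum is removed). The comparison used 5 neurite libraries and 5 soma libraries, paired by the plasmid with which the cells had been transfected: a piece of DMPK that lacked CTG repeats (CTG0), that piece carrying 480 of them (CTG480), or the tail of the kinesin Kif1bα, Kif1bβ or Kif1c. Cells sat on inserts with pores of 1 µm, neurites grew through the pores for 48 h, and each compartment was lysed separately. Every library came from transfected cells of 1 line, the wells of a condition were pooled, and the experiment was done once. The p values below therefore rest on how 5 unlike transfections varied, since no condition had a replicate. In bulk libraries of this kind, fewer cells of a type and less RNA per cell cannot be told apart. The plasmid rows matched the labels of the tail transfections: each tail sequence was at 3269 TPM or more in its own libraries and at 28.8 TPM or less in the others.

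The values are TPM, a measure of transcript abundance corrected for length and library total, estimated by the authors from the reads and evened out between libraries by cyclic loess. Rows of the same gene were summed, rows for plasmids and rows with no gene name were left out, and genes averaging under 5 TPM across the 10 libraries were set aside. Of 13698 genes, 9853 met this minimum and 3845 did not. Genes just inside and just outside the minimum had similar levels of bias: the median localization ratio was 0.02 for the 208 genes at 5 to 5.5 TPM and 0.01 for the 207 genes at 4.5 to 5 TPM. The localization ratio is log2(neurite/soma), with 0.1 TPM added to each value, so a positive ratio means more of the transcript, relative to the rest, in neurites. A gene is called higher in one compartment at an adjusted p under 0.05 from limma, with transfection as a block. By this test 19.4% of the genes were higher in neurites and 18.6% were higher in soma. All 5 neurite libraries lay above all 5 soma libraries for 1352 genes (13.7%), and the reverse held for 1410 genes (14.3%).

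Most shifts were small. The median ratio of the called genes was 0.27 in neurites and −0.32 in soma, and a called ratio of at least 1 was found for 8 coding genes in neurites and 6 in soma. The 5 transfections ordered the genes alike in part: over 9462 coding genes, Pearson's r between the ratios of 2 transfections was 0.44 to 0.61 in the 10 pairs, a description across genes, which are not independent. The columns sum to 1045625 to 1183538 TPM in soma and to 870745 to 892618 TPM in neurites, and noncoding RNAs took 33.0 to 38.5% of the soma total and 24.6 to 27.8% of the neurite total. Scaling every column to the same sum raised the median ratio of all genes from 0.01 by 0.34, with 7093 genes then higher in neurites and 203 in soma. All directions below are therefore relative to the middle of all genes and would move with that shift. The files hold no read counts, and the depth of the libraries is unknown.

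Proteins reach their place in the cell by a small number of routes, and the route is often written in the protein's own sequence. A hydrophobic signal peptide at the N terminus, or a membrane-spanning segment, is recognised by the signal recognition particle (SRP) while the protein is still being made. The ribosome and its mRNA then dock at the translocon of the rough endoplasmic reticulum (ER), which in neurons is densest in the soma. Soluble ER proteins that end in the residues KDEL, or a close variant, are brought back from the Golgi by KDEL receptors. Proteins that end in a CAAX box (a cysteine, usually followed by aliphatic residues, and a variable last residue) are made on free ribosomes and receive a lipid on the cysteine afterwards. Neurites also hold mRNAs that are carried along microtubules, and many of these encode cytoskeletal, ribosomal and mitochondrial proteins.

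To see whether such signals sort with the localization ratio, the coding sequence of each gene's most abundant transcript was translated from GENCODE M21 models of GRCm38, which gave a complete coding sequence for 9363 genes. The 3′ ends of some of these coding sequences are shown because they carry the sorting signal itself. The last 30 bases of each are given 5′ to 3′, with the 4 codons before the stop codon in capitals. The first 6 belong to the KDEL-type mRNAs with the lowest ratios.
Hsp90b1 (chr10:86690840-86705509, minus strand): aaggaatctacagagAAGGATGAATTGtaa
Erp44 (chr4:48193323-48279558, minus strand): actttattgagggatCGAGATGAGCTGtaa
Uggt2 (chr14:118985039-119099430, minus strand): agtgcgaattcagttCATGATGAACTCtag
Hspa5 (chr2:34772095-34776531, plus strand): gaggatacatcagaaAAAGATGAGTTGtag
Uggt1 (chr1:36140027-36244305, minus strand): gaaggctctcagaagCATGAGGAATTAtga
Pdia4 (chr6:47796141-47813430, minus strand): aagaggagcaggaccAAGGAAGAGCTTtaa
The next 6 belong to the CAAX mRNAs with the highest ratios.
Gngt2 (chr11:95842668-95845734, plus strand): aaggagaaaggcactTGTGTGCTAAGCtga
Rab13 (chr3:90220787-90225969, plus strand): aagaagaagaacaagTGCTTGTTAGGCtga
Rras2 (chr7:114046782-114117781, minus strand): aagaaaggctgccatTGTGTCATTTTCtaa
Diras1 (chr10:81019589-81025409, minus strand): cgcatcaagggcaagTGCGCGCTCATGtga
Hras (chr7:141190926-141194005, minus strand): tgcatgagctgcaaaTGTGTGCTGTCCtga
Ykt6 (chr11:5955693-5967780, plus strand): aaacaaaactcttgcTGTGCAATCATGtga
The capitals differ between the mRNAs of a set because several codons give the same residue and because both signals allow variants.

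mRNAs with a KDEL-type end were higher in soma. Of 33 such genes, 25 (75.8%) were higher in soma and none in neurites by limma, at 0 also for an unadjusted p under 0.05, against 17.8% and 20% of all genes with a complete coding sequence. Their median ratio was −0.35, with medians of −0.39 to −0.28 in the 5 transfections, where all tested genes had a median of 0.01. Hsp90b1, the ER member of the Hsp90 chaperones, was at 486, 494, 482, 451 and 476 TPM in the soma libraries of CTG0, CTG480, Kif1bα tail, Kif1bβ tail and Kif1c tail, and at 328, 318, 341, 308 and 289.7 TPM in the neurite libraries in the same order. Its 2 sets of libraries did not overlap, and its ratio was −0.59 ± 0.042 (SE). Erp44, which holds back unassembled proteins from the secretory route, was at −0.54. The glycoprotein glucosyltransferases Uggt2 and Uggt1, which mark misfolded glycoproteins for another round of folding, were at −0.53 and −0.48, the Hsp70 chaperone Hspa5 (BiP) at −0.51, the disulfide isomerase Pdia4 at −0.47 and the calcium-binding chaperone Calr at −0.45. The 8 genes that were not called had ratios from −0.16 for Kdelc2 to 0.14 for Rab3ip. Among them were Pfkp, a glycolytic enzyme at 0.10, and Rab3ip, an exchange factor for Rab8, both cytosolic proteins whose last residues match the pattern.

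mRNAs with a CAAX end were higher in neurites. Of 41 such genes, 17 (41.5%) were higher in neurites, and Fbxl20, a ubiquitin ligase subunit, alone was higher in soma (−0.28), a call lost without CTG0 (0.0544) or CTG480 (0.0525), limma adjusted p in brackets. The median ratio was 0.13, and 0.10 to 0.16 in the 5 transfections. Rab13, a GTPase of vesicle traffic, was at 21.5, 25.8, 21.2, 23.6 and 18.3 TPM in the soma libraries and at 38.7, 34.7, 36.2, 40.6 and 31.5 TPM in the neurite libraries, in the order given above. Its lowest neurite library stood above its highest soma library, and its ratio was 0.72 ± 0.066 (SE). Hras, a GTPase of growth factor signalling, was at 15.6, 15.1, 13.4, 17.6 and 14.4 TPM in soma and at 20.4, 25.4, 19.9, 19.8 and 19.4 TPM in neurites, again with no overlap, and its ratio was 0.46 ± 0.082 (SE). Gngt2, a G-protein γ subunit, had the highest ratio of the class (1.15 ± 0.22 (SE)) at a low level, 4.27, 2.96, 1.77, 6.04 and 3.31 TPM in soma and 8.55, 11.9, 4.77, 7.25 and 7.39 TPM in neurites, and its libraries overlapped. The Ras relatives Rras2 and Diras1 were at 0.62 and 0.59, the SNARE Ykt6 at 0.38 and the GTPase Rab28 at 0.37. With the most abundant transcript of each gene alone, Rab28 was at 0.089 and was not called (limma adjusted p = 0.502). The small GTPases Rac1, Rhoa and Cdc42, which steer actin in growth cones, had ratios of 0.03, 0.06 and −0.04 and were not called. With the most abundant transcript alone, Rhoa was at 0.30 and higher in neurites (limma adjusted p = 0.00916).

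Hydrophobic segments sorted the coding genes more broadly. A segment was any stretch of 19 residues with a mean Kyte-Doolittle hydropathy of at least 1.6, and it was counted as near the N terminus if it began within the first 30 residues. The scan reads letters only and does not separate a signal peptide from a membrane anchor. It also misses membrane proteins: among 28 carriers of the Slc25 family, which cross the inner membrane of mitochondria, it found a segment in 15. Genes without a segment are therefore not all soluble. Of 6618 genes without a segment, 1540 (23.3%) were higher in neurites and 734 (11.1%) in soma, with a median ratio of 0.05. Of 394 genes whose only segment lay near the N terminus, 36 (9.14%) were higher in neurites and 176 (44.7%) in soma, with a median of −0.18. Of 1219 genes with 2 or more segments, 83 (6.81%) were higher in neurites and 521 (42.7%) in soma, with a median of −0.17. The 1132 genes with 1 segment elsewhere lay between, with 210 (18.6%) higher in neurites and 238 (21%) in soma and a median of −0.00068.

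The soma share was larger among proteins with many segments. It was 39.0% of 684 genes with 2 to 3 segments, 41.5% of 316 with 4 to 6, 56.9% of 160 with 7 to 9 and 54.2% of 59 with 10 or more. The neurite share was 9.50, 5.06, 1.25 and 0% in the same order, and the count of 0 among the 59 by limma was also 0 at an unadjusted p under 0.05. The median of the genes with 2 or more segments was −0.22 to −0.07 in the 5 transfections, and that of the genes with 1 segment near the N terminus was −0.25 to −0.09. Both medians were closest to 0 in the Kif1bα tail transfection. The ratios of all coding genes were also least spread there, with an SD over genes of 0.283 against 0.293 to 0.350 in the other 4.

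**Figure D1:**
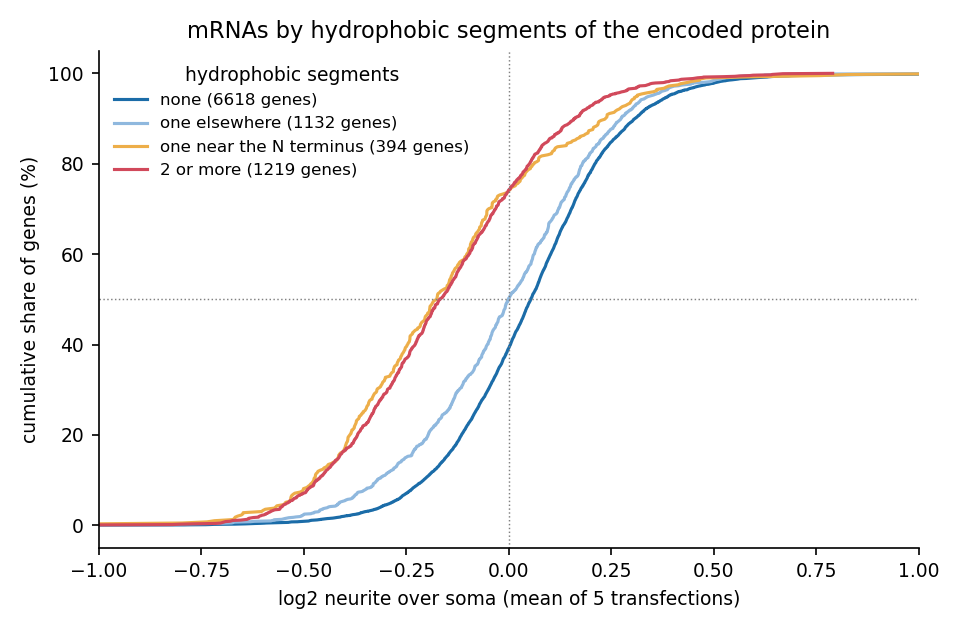
Cumulative share of coding genes (percent, y axis) against the localization ratio (log2 neurite over soma, mean of 5 transfections, x axis) for 4 classes of hydrophobic segments, with the number of genes in the legend and dotted lines at 0 and 50%. The curves of proteins with 1 segment near the N terminus (394 genes, median −0.18) and with 2 or more segments (1219 genes, median −0.17) lie left of the curve without a segment (6618 genes, median 0.05).

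Base composition moved with the ratio too, and the segment classes are therefore also given within quartiles of GC content. The quartile of coding genes with the lowest GC (up to 45.7%) had 6.75% of its genes higher in neurites and 28.0% higher in soma, and the quartile with the highest GC (above 55.4%) had 32.4% and 10.2%. The 4 segment classes themselves had alike GC, with medians of 50.3% without a segment, 50.7% with 1 elsewhere, 51.5% with 1 near the N terminus and 51.6% with 2 or more. Within every quartile the soma share was higher with 2 or more segments than without any: 63.6 against 21% in the lowest quartile, 47.2 against 11.7% and 40.6 against 6.86% in the middle quartiles, and 26.4 against 3.95% in the highest. Genes with 1 segment near the N terminus followed the same order, at 56.2, 50, 39.0 and 38.0% from the lowest to the highest quartile. Longer transcripts were lower in neurites, with 29.4% of the shortest quartile and 9.44% of the longest quartile called higher there. Over coding genes Spearman's rank correlation with the ratio was 0.34 for GC, −0.25 for length, −0.21 for the coding sequence, −0.16 for the 3′ UTR and −0.01 for mean TPM, given as a description. GC content, length and any bias of library preparation or quantification with them cannot be told apart in these files. With a correction for both, added after the data had been seen, 566 genes with 2 or more segments were higher in soma, against 521 without it.

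**Figure D2:**
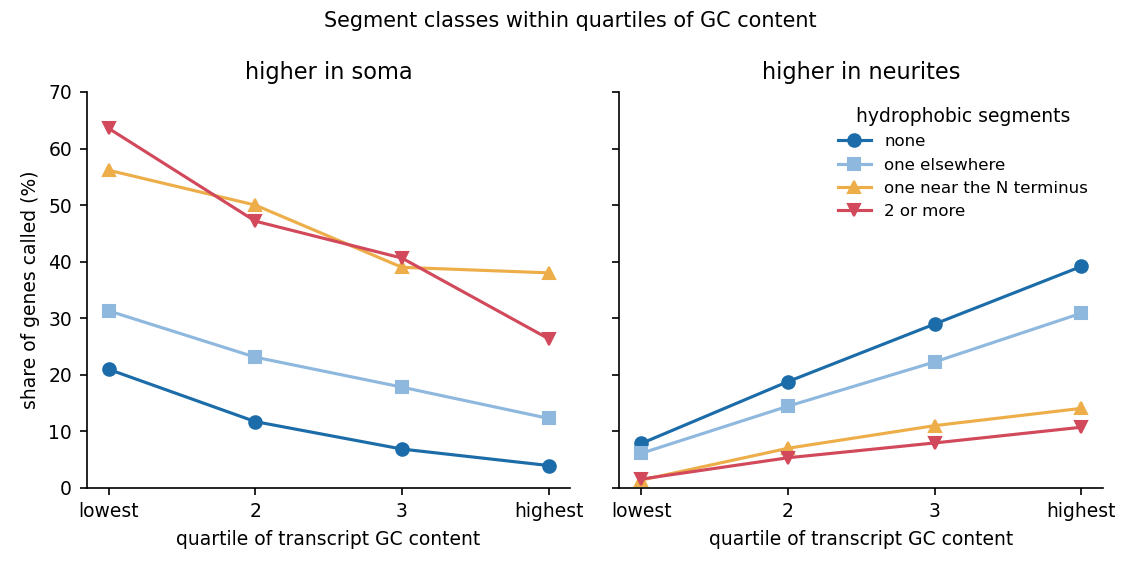
Share of genes called by limma (percent, y axes) higher in soma (left) and higher in neurites (right) in the 4 quartiles of transcript GC content (x axes), with 1 line per segment class. In the quartile of lowest GC 63.6% of genes with 2 or more segments and 21% of genes without a segment were higher in soma, and in the quartile of highest GC these shares were 26.4 and 3.95%.

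The machinery that receives such proteins at the ER was split by where each subunit sits. Of 26 genes of the SRP, the translocon and the signal peptidase, 13 were higher in soma and 4 in neurites. The 17 with a hydrophobic segment held 12 of the soma calls and 1 neurite call. Tram1, a membrane protein beside the translocon, was at −0.53, the TRAP subunit Ssr1 at −0.36, the channel subunit Sec61a2 at −0.37 and the signal peptidase subunit Spcs3 at −0.32. The exception was the small channel subunit Sec61b, at 0.31 in neurites, while Sec61g of the same channel was among the soma calls. Of the 9 without a segment 3 (33.3%, against 19.4% of all genes) were higher in neurites, led by the SRP protein Srp9 (0.28). In soma 1 (11.1%, against 18.6% of all genes) was higher, Srp72 (−0.24).

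Enzymes that add and trim N-linked glycans on nascent chains were higher in soma. Of 30 such genes, 22 were higher in soma and none in neurites by limma, also 0 at an unadjusted p under 0.05, with a median ratio of −0.34. The glucosyltransferase Alg6 was at −0.61 ± 0.11 (SE), the Golgi mannosidase Man2a1 at −0.57 ± 0.041 (SE), and the oligosaccharyltransferase subunits Stt3a and Rpn1 at −0.49 and −0.48. Ostc (−0.15), a small membrane protein of the same complex, and Alg13 (0.08), a subunit that works on the cytosolic face, did not pass the test.

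Among coats and cargo receptors of ER to Golgi traffic, the soma calls fell on members with a segment. Of 16 coat proteins and other members without a segment, 2 (12.5%, against 19.4% of all genes) were higher in neurites, the COPI subunit Copz1 (0.19) and the COPII GTPase Sar1a (0.17, a call lost without CTG0 (0.0624), CTG480 (0.0645), the Kif1bα tail (0.0535) or the Kif1bβ tail (0.0569), limma adjusted p in brackets), and none was higher in soma by limma, with 0 at an unadjusted p under 0.05. Of 17 members with a segment, 10 were higher in soma and none in neurites, with 0 at an unadjusted p under 0.05. They were the KDEL receptors Kdelr1 (−0.40), Kdelr2 (−0.38) and Kdelr3 (−0.37), the lectin Lman1 (−0.42) and 6 p24 cargo receptors of the Tmed family, with Tmed5 lowest at −0.58 and Tmed10 at −0.36. The KDEL receptors thus lay on the same side as the mRNAs of the proteins they retrieve.

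Lysosomal proteins enter through the ER as well, and 28 of 31 such genes were higher in soma. None was higher in neurites by limma, with 0 at an unadjusted p under 0.05, and the median ratio was −0.35. Glb1, the lysosomal β-galactosidase, was at 41.7, 47.6, 47.7, 51.0 and 48.0 TPM in the soma libraries and at 29.3, 24.4, 34.5, 31.6 and 31.3 TPM in the neurite libraries. Every soma library exceeded every neurite library, and the ratio was −0.65 ± 0.074 (SE). The peptidase Tpp1 was at −0.57 and the sulfatase Galns at −0.55. The 3 that were not called were the cathepsin Ctsz (−0.22), the membrane protein Cln3 (−0.05) and the sialidase Neu1 (−0.03).

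Adhesion and guidance receptors act at the tips of neurites, and their mRNAs were higher in soma. Of 50 listed genes 21 reached the minimum, and 17 of these were higher in soma and none in neurites by limma, with 0 at an unadjusted p under 0.05. Their median ratio of −0.41 was the lowest of the lists of protein-coding genes described here. L1cam, an adhesion molecule of axons, was at 92.6, 87.4, 82.6, 91.8 and 87.1 TPM in soma and 52.1, 50.4, 63.6, 54.5 and 51.8 TPM in neurites. The compartments did not overlap, and the ratio was −0.70 ± 0.068 (SE), with the smallest shift in the Kif1bα tail transfection. The adhesion molecule Ncam1 was at −0.55, the integrin subunits Itgb1 and Itga6 at −0.53 and −0.50, and the netrin receptor Neo1 at −0.50. The receptors for semaphorins Nrp1 and Plxna4 were at −0.46 and −0.45. The 4 that did not pass were Unc5a (−0.20), Itga7 (−0.11), Itgb5 (−0.11) and Plxnd1 (−0.04).

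The vacuolar proton pump was listed by sector. Its V0 sector crosses the membrane and its V1 sector, which splits ATP, is assembled from cytosolic subunits. Of 8 V0 genes and accessory subunits, 3 (37.5%, against 18.6% of all genes) were higher in soma. They were the V0 subunit Atp6v0a1 (−0.38) and the accessory subunits Atp6ap1 (−0.45) and Atp6ap2 (−0.24). Atp6ap2 was not called with the correction for GC content and length, and the V0 subunit Atp6v0c had no row. None of the 8 was higher in neurites by limma, with 0 at an unadjusted p under 0.05. Of 8 V1 genes, 4 (50%, against 19.4% of all genes) were higher in neurites, Atp6v1b2 (0.29), Atp6v1c1 (0.23), Atp6v1g1 (0.21) and Atp6v1a (0.16). None of these 8 was higher in soma by limma, with 0 at an unadjusted p under 0.05. The medians were −0.15 and 0.14. The call of Atp6v1c1 was lost without the Kif1bβ tail transfection (limma adjusted p = 0.0508), and that of Atp6v1a without CTG0 (0.0643), CTG480 (0.0783) or the Kif1c tail (0.0632).

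Over 6 mixed lists together, those of the SRP and translocon, coats and cargo receptors, both pump sectors, the nuclear pore, and synaptic vesicles and SNAREs, 63 genes had no segment and 75 had at least 1. Without a segment 14 (22.2%) were higher in neurites, near the 19.4% of all genes and the 23.3% of all genes without a segment. In soma 2 were higher (3.17%, against 18.6% of all genes), Srp72 and the nuclear pore basket protein Tpr (−0.20), and the median was 0.08. With a segment 9 (12.0%) were higher in neurites and 34 (45.3%) in soma, with a median of −0.14. In the nuclear pore, the membrane-anchored nucleoporins Pom121 and Nup210 were at −0.42 and −0.37, and the scaffold protein Nup133, without a segment, at 0.25. The pore did not follow the division throughout. Of its 12 genes with a segment 4 were higher in soma, Ranbp2 among them, and 3 in neurites, among them the scaffold protein Nup85 (0.24). Of its 16 without one 3 were higher in neurites and 1 in soma. Ndc1, another membrane nucleoporin, was at −0.43 and lost its call without CTG0 (limma adjusted p = 0.0712).

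Synaptic vesicle and SNARE genes were called about as often as all genes. Of 35 genes, neurites had 7 (20%, against 19.4% of all genes) higher and soma 5 (14.3% against 18.6%), with a median of 0.02. Of the 22 with a segment, 5 were higher in each compartment, and of the 13 without one, 2 were higher in neurites. Cplx2, a soluble complexin that clamps SNARE complexes, was at 19.8, 21, 21.9, 18.7 and 16.4 TPM in soma and 43.7, 49.2, 48.2, 54.7 and 31.4 TPM in neurites. It was higher in each neurite library than in any soma library, and its ratio of 1.20 ± 0.081 (SE) was among the highest of all coding genes. The vesicle calcium sensors Syt4, Syt11 and Syt1, each anchored by a segment, were at −0.80, −0.39 and −0.38. Many SNAREs are tail-anchored proteins that enter membranes after synthesis is complete. Among these, Stx6 (0.37), Stx12 (0.18) and Vamp3 (0.17) were higher in neurites, and Vamp2 (−0.04) was not called.

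Mitochondrial membrane proteins lay on the neurite side. Mitochondria take up nearly all their proteins after synthesis, through the TOM and TIM complexes. Of 29 import genes, 10 rose in neurites, and by limma none was higher in soma, with 0 at an unadjusted p under 0.05 and a median of 0.12. The inner membrane channel Timm22 was at 0.52 ± 0.079 (SE), the small chaperone Timm13 at 0.51 ± 0.067 (SE) and the outer membrane channel Tomm40 at 0.30. Of 28 carriers of the Slc25 family, which cross the inner membrane, 11 rose in neurites, and by limma none was higher in soma, with 0 at an unadjusted p under 0.05 and a median of 0.14. Of the 119 other Slc transporters, 4 were higher in neurites and 55 in soma, with a median of −0.21. In a set drawn up after the values were seen, 53 genes with mitochondrial symbols and at least 1 segment had 23 neurite calls and 2 soma calls (median 0.14), against 306 and 933 among the 2692 other genes with a segment (median −0.10). Of 24 genes of the citrate cycle and pyruvate entry, 10 were higher in neurites, with the membrane anchor Sdhc at 0.38 and the pyruvate carrier Mpc2 at 0.32, and 2 in soma, among them the dehydrogenase subunit Dld (−0.13, a call lost without CTG0 (0.0736), CTG480 (0.0831), the Kif1bα tail (0.0662), the Kif1bβ tail (0.136) or the Kif1c tail (0.0665), limma adjusted p in brackets).

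Tubulin and cytosolic folding genes leaned to neurites, and actin genes did so less evenly. Of 13 tubulins, 7 rose in neurites, and by limma none was higher in soma, with 0 at an unadjusted p under 0.05 and a median of 0.15. Tuba1c was at 96.0, 89.4, 83.3, 86.0 and 88.5 TPM in soma and 120.0, 122, 115, 126 and 118 TPM in neurites. The libraries did not overlap, and the ratio was 0.44 ± 0.042 (SE). Tubulin genes share long stretches of sequence, so reads may be divided among them. The chaperonin CCT and prefoldin, which fold tubulin and actin, had 8 of 14 genes higher in neurites and 1 in soma, with Pfdn6 at 0.68 ± 0.085 (SE), Cct8 at 0.32 and, in soma, Pfdn4 at −0.14 (a call lost without CTG480 (0.0956), the Kif1bα tail (0.0607), the Kif1bβ tail (0.0851) or the Kif1c tail (0.0559), limma adjusted p in brackets). Of 33 actin genes, 10 (30.3%, against 19.4% of all genes) lay higher in neurites and 2 (6.06%, against 18.6%) in soma. Their median was 0.04 against 0.01 over all genes, and 0.14 in the Kif1c tail. It lay below that of all genes in 2 transfections, CTG480 (−0.02) and the Kif1bα tail (−0.03). Profilin, Pfn1, was at 0.36 and the Arp2/3 subunit Arpc1b at 0.32, whereas the actin-sequestering thymosin Tmsb10 was at −0.49 and Arpc3 at −0.29. Actb, whose mRNA is carried to growth cones in neurons, was at 0.04 and was not called.

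Dynein genes were called about as often as all genes. Of 27 genes of dynein, dynactin and their adaptors, neurites had 7 (25.9%, against 19.4% of all genes) higher and soma 5 (18.5% against 18.6%), with a median of −0.04. The light chain Dynll2 was at 0.64 ± 0.056 (SE), the light intermediate chain Dync1li2 at 0.28 and the dynactin subunit Dctn3 at 0.22. The heavy chain Dync1h1 was at −0.35, and the adaptor Hook3 at −0.31. With the correction for GC content and length, Dctn3 was at 0.11 and Hook3 at −0.094, and neither was called. Of 58 small GTPases, many of them lipid-anchored, 18 were higher in neurites and 2 in soma, Rab33b (−0.25) and Rab6a (−0.17, a call lost without CTG480 (0.0611) or the Kif1bβ tail (0.0559), limma adjusted p in brackets), both of the Golgi. The highest beside the CAAX genes named above were Rnd2 (0.56) and Rhou (0.49), small GTPases that shape the cytoskeleton.

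Genes of DNA replication also leaned to neurites, and those of transcription did so mainly by fewer soma calls. Of 49 DNA replication genes, neurites had 20 higher and soma 3, with a median of 0.12. The replication protein Rpa2 was at 0.53 ± 0.041 (SE), the polymerase subunit Pole4 at 0.52 and the helicase subunit Mcm5 at 0.44. Of 53 genes of RNA polymerase II, Mediator and TFIID, 13 (24.5%, against 19.4% of all genes) were higher in neurites. In soma 4 were higher (7.55%, against 18.6% of all genes), and the median was 0.10. The small polymerase subunits Polr2l and Polr2f were at 0.39 and 0.37 and the Mediator subunit Med22 at 0.46, while the large catalytic subunit Polr2a was at −0.22. The splicing proteins of the Sm and LSm rings had 7 of 20 genes higher in neurites and 1, Snrpd1 (−0.25), in soma. The hnRNP and SR proteins had 7 of 34 (20.6%, near the 19.4% of all genes) higher in neurites and 3 in soma, Srsf11 (−0.23), Tra2a (−0.19) and Srsf6 (−0.18), the last not called with the correction for GC content and length. Cytosolic aminoacyl-tRNA synthetases had 6 of 20 higher in neurites, with Mars at 0.30, and 1 higher in soma, Iars (−0.10, a call lost without CTG0 (0.125), CTG480 (0.128), the Kif1bβ tail (0.122) or the Kif1c tail (0.107), limma adjusted p in brackets).

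**Figure D3:**
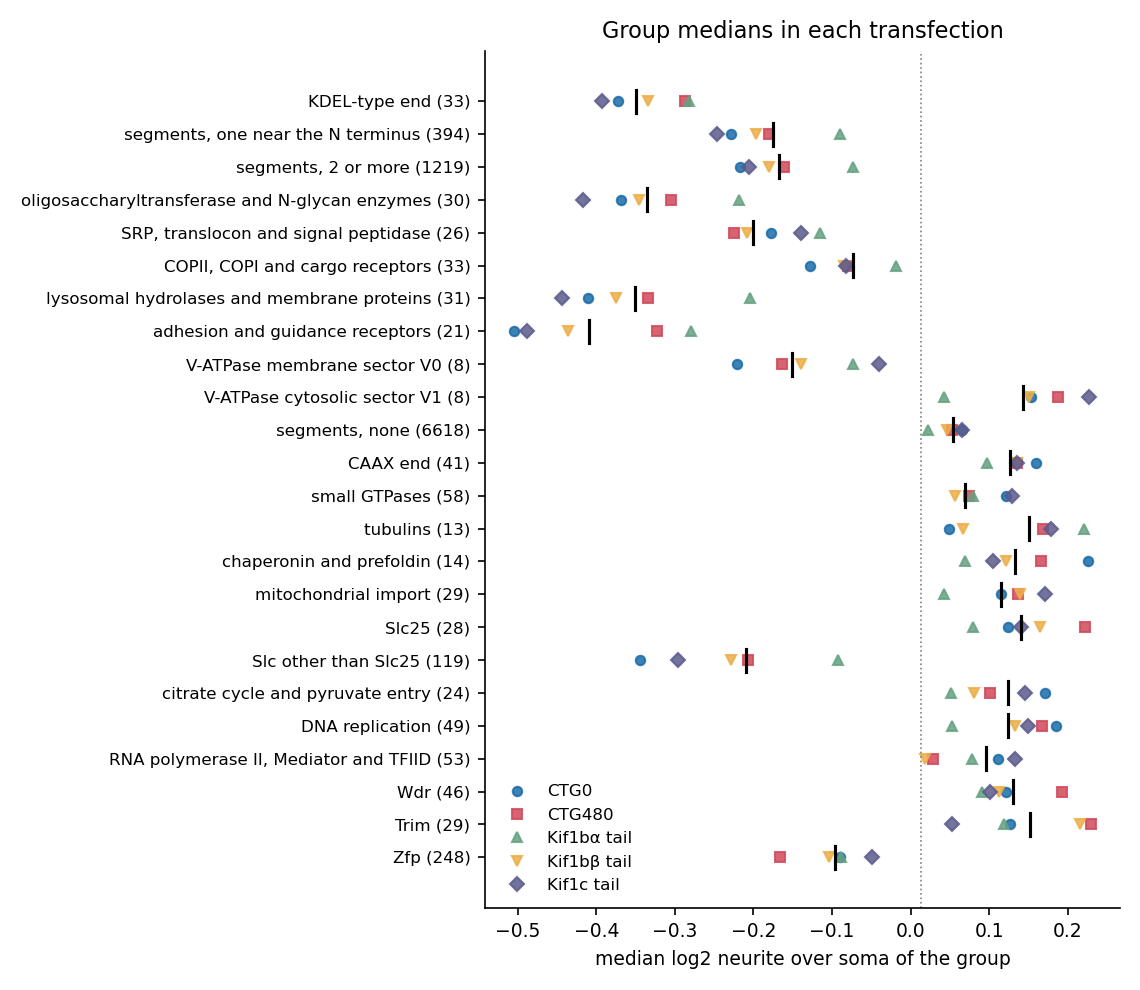
Median localization ratio (log2 neurite over soma, x axis) of gene groups (y axis, number of genes in brackets), with 1 symbol per transfection and a black bar at the median over the mean ratios of its genes; the dotted line marks the median of all genes, 0.01. Groups of the secretory route, from −0.41 for adhesion receptors to −0.07 for coats and cargo receptors, lie left of it, and tubulins (0.15), Slc25 carriers (0.14) and mitochondrial import (0.12) lie right of it.

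mRNAs reported in neurites or axons in other systems were not uniformly higher in these neurites. Of 38 such genes, neurites had 12 higher and soma 5, with a median of 0.06 against 0.01 over all genes. Net1, an exchange factor for RhoA, and Rab13 led the list. The calmodulin gene Calm3 was at 0.28, the lamin Lmnb2 at 0.26 and the microtubule regulator Stmn1 at 0.23. The soma calls were led by Tmsb10 and the microtubule-associated protein Mapt (−0.23). Gap43 (0.13), a growth cone protein, was not called.

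The coding genes with the highest neurite ratios, among those averaging 20 TPM or more, were Btg3, Cplx2, Trp53inp2 and Sh3pxd2a. Trp53inp2, a protein of autophagy and transcription, was at 57.1, 54.7, 57.5, 57.2 and 51.6 TPM in soma and 122, 116, 128, 138 and 104 TPM in neurites. Every neurite library exceeded every soma library, and the ratio was 1.12 ± 0.046 (SE). Sh3pxd2a, a scaffold of invasive protrusions, was at 28.1, 27.1, 27.3, 28.2 and 29.3 TPM in soma and 54.6, 53.6, 57.3, 62.1 and 45.2 TPM in neurites. Here too the compartments did not overlap, and the ratio was 0.95 ± 0.074 (SE). Btg3, an antiproliferative protein, was at 16.9, 20.3, 29.8, 3.15 and 17.5 TPM in soma and 40.0, 37.8, 34.8, 35.3 and 32.4 TPM in neurites, with a ratio of 1.34 ± 0.40 (SE) (limma adjusted p = 0.0339). The Kif1bβ tail soma library stood far below the other soma libraries of this gene, and the ratio without that transfection was 0.81. The call was lost without CTG0 (adjusted p = 0.0746), CTG480 (0.0629) or the Kif1c tail (0.0556) in limma.

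**Figure D4:**
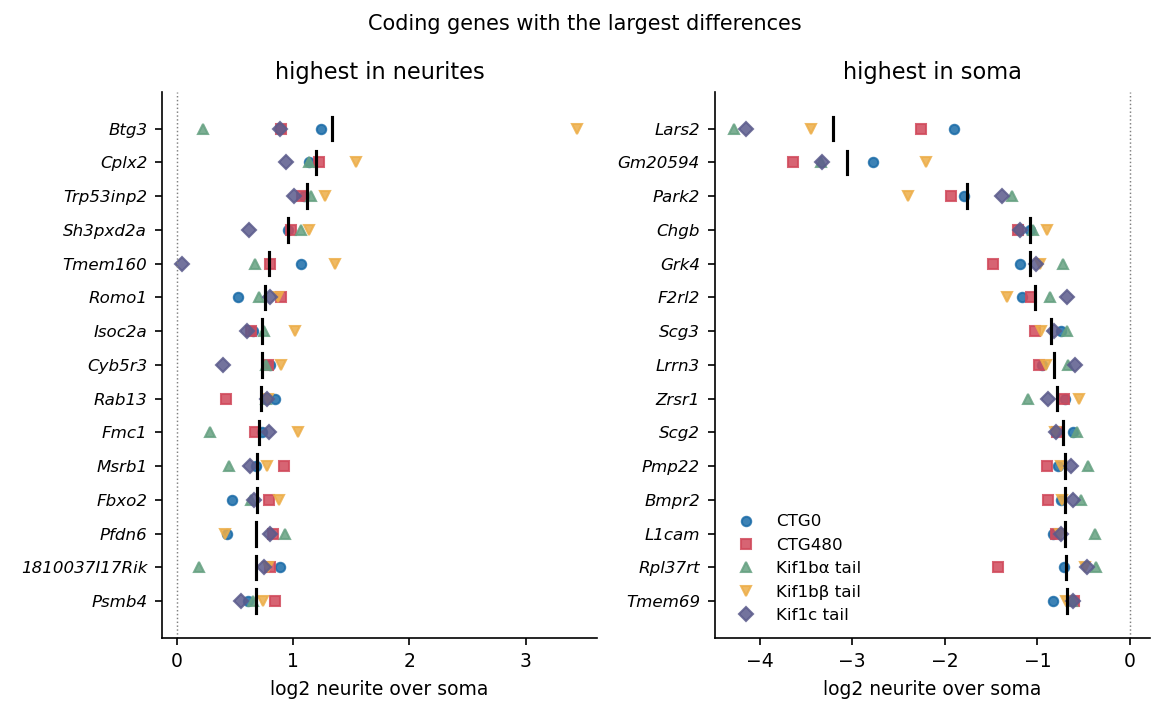
Localization ratio (log2 neurite over soma, x axes) of the 15 coding genes with the largest called difference toward neurites (left) and toward soma (right), with 1 symbol per transfection and a black bar at the mean; the axes differ in range. Btg3 stands out by its Kif1bβ tail value, and all 5 symbols of each gene lie on one side of 0.

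The other coding genes among the 15 highest included the mitochondrial proteins Tmem160 (0.79), Romo1 (0.76) and Fmc1 (0.71), the reductase Cyb5r3 (0.73), the methionine sulfoxide reductase Msrb1 (0.69), the F-box protein Fbxo2 (0.69) and the proteasome subunit Psmb4 (0.68). Isoc2a (0.73) and 1810037I17Rik (0.68) were also among them. Tmem160 and Romo1 each have hydrophobic segments. The smallest p in this direction belonged to genes with little spread. Atp5e, the ε subunit of ATP synthase, was at 171, 167, 159, 175 and 175 TPM in soma and 252, 273, 254, 277 and 256 TPM in neurites. H2afz, a histone variant, was at 608, 593, 538, 534 and 548 TPM and 845, 824, 732, 772 and 762 TPM. In both genes the compartments did not overlap, with ratios of 0.63 ± 0.040 (SE) and 0.48 ± 0.035 (SE). The tRNA splicing subunit Tsen34 was at 0.65 and the mitochondrial elongation factor Tsfm at 0.59.

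The granins Chgb, Scg3 and Scg2, cargoes of dense-core vesicles, were among the 15 coding genes with the largest soma differences. They are stored in the regulated secretory granules of neurons and endocrine cells, and each starts with a signal peptide. The scan found no hydrophobic segment in Scg3, which is therefore counted above among the genes without a segment. Chgb was at 288, 292, 345, 323 and 330.0 TPM in soma and 137, 127, 167, 173 and 145 TPM in neurites. Scg3 was at 281, 284, 303, 294 and 296 TPM in soma and 168, 139, 189, 150.4 and 168 TPM in neurites. Scg2 was at 299, 292, 281, 294 and 297 TPM in soma and 195, 169, 189.6, 167 and 170.3 TPM in neurites. For all 3 granins the highest neurite library lay well below the lowest soma library. Their ratios were −1.08 ± 0.051 (SE), −0.85 ± 0.057 (SE) and −0.72 ± 0.049 (SE), and Chga, another granin, was at −0.47. Membrane proteins made up much of the rest of the 15 lowest: the protease-activated receptor F2rl2 (−1.02), the leucine-rich repeat protein Lrrn3 (−0.82), the myelin protein Pmp22 (−0.70), the BMP receptor Bmpr2 (−0.70) and Tmem69 (−0.68), beside L1cam. Genes with small p on this side were the ER lectin Os9 (−0.53 ± 0.038 (SE)), the collagen prolyl hydroxylase P4ha1 (−0.61 ± 0.043 (SE)), the thioredoxin-related Tmx3 (−0.59 ± 0.042 (SE)) and Thsd7a (−0.60).

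**Figure D5:**
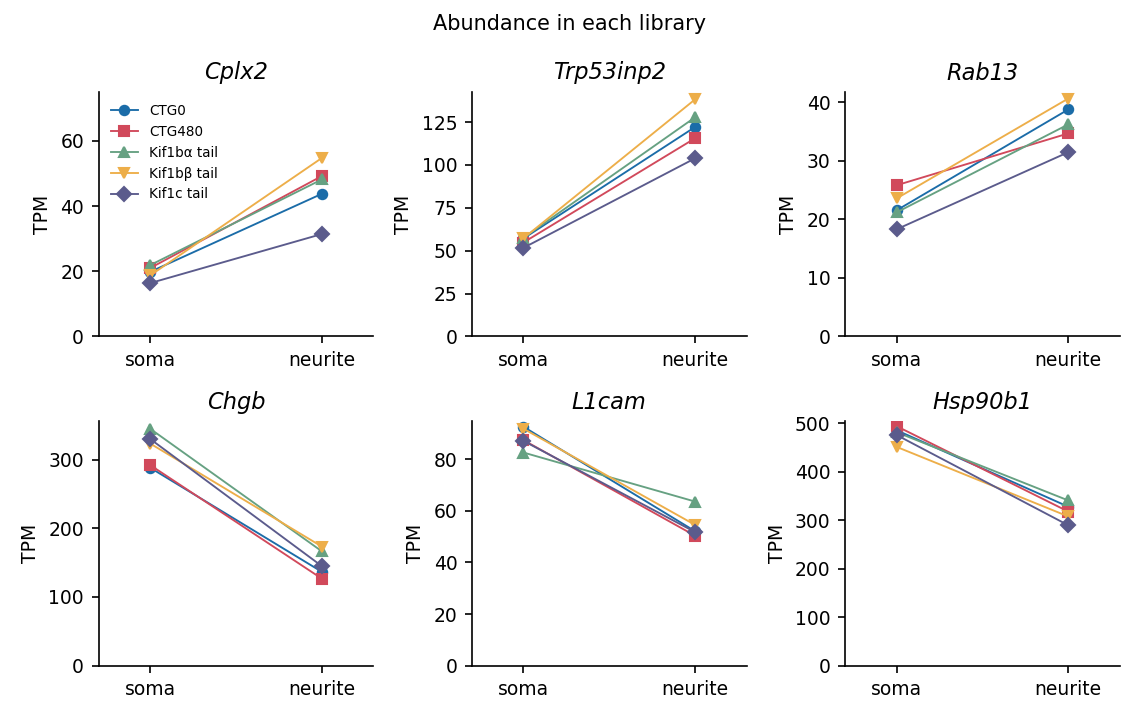
TPM (y axes from 0, different in each panel) of 6 genes in the soma and the neurite library of each transfection, joined by a line. Cplx2, Trp53inp2 and Rab13 rise from soma to neurite in all 5 transfections, and Chgb, L1cam and Hsp90b1 fall in all 5.

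The coding accessions with the largest soma ratios were Lars2, Gm20594 and Park2, and the ratios of Lars2 varied with those of ribosomal RNA. Lars2, the mitochondrial leucyl-tRNA synthetase, was at 161, 175, 398, 310.0 and 403 TPM in soma and 43.1, 36.4, 20.5, 28.5 and 22.6 TPM in neurites. Its ratios were −1.90, −2.26, −4.27, −3.44 and −4.15 in CTG0, CTG480, Kif1bα tail, Kif1bβ tail and Kif1c tail. The ribosomal RNA rows Gm22109, Gm22291, Gm23284, Gm25018, Gm25212 and Gm26391, whose values are identical, had ratios of −3.18, −4.36, −5.57, −5.73 and −6.02 in the same order. Both were nearest 0 in CTG0, next in CTG480, and lower in the 3 tail transfections. Their part in the result for Lars2 was not tested. Gm20594 had ratios of −2.78, −3.63, −3.34, −2.20 and −3.33, with no such order, and Park2, a ubiquitin ligase for which the table holds a coding accession, was at 91.7, 67.0, 78.2, 121 and 61.3 TPM in soma and 26.5, 17.5, 32.4, 22.8 and 23.4 TPM in neurites. Other genes among the 15 lowest were the kinase Grk4 (−1.07) and the retrogenes Zrsr1 (−0.79) and Rpl37rt (−0.69), which share sequence with expressed parent genes.

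Among the 10 coding genes with the highest mean TPM, Gm20594 was far higher in soma (−3.06), and Rpl41 (0.18) and Rps18 (0.13) were higher in neurites. Without CTG0, CTG480, the Kif1bα tail or the Kif1bβ tail the limma adjusted p of Rpl41 was 0.0531, 0.0659, 0.0566 and 0.0577. Without each of the 5 transfections in turn that of Rps18 was 0.0812, 0.0982, 0.138, 0.134 and 0.0577. With the correction for GC content and length the ratios were 0.011 for Rpl41 and 0.0023 for Rps18, and neither was called. The elongation factor Eef1a1 (0.06) and Rps26 (−0.18) were not called.

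Neuronal markers were abundant in both compartments and markers of other cell types were low or had no row, apart from muscle markers. Of 12 neuronal markers 9 had rows, all at 5 TPM or more, with sums of 1500 to 1607 TPM in soma and 1465 to 1543 TPM in neurites. Of these, 3 were higher in neurites, with Uchl1 at 0.34 and Ina at 0.25, and 4 in soma, among them Chgb, Chga and Stmn2 (−0.46). None of 6 astrocyte markers had a row. Markers of oligodendrocytes (1 of 8 with a row), microglia (2 of 7), endothelium (1 of 5) and fibroblasts (2 of 6) were all under 5 TPM. Of 6 muscle markers 4 had rows, which summed to 151 to 165 TPM in soma and 179 to 203 TPM in neurites. The 2 at 5 TPM or more were the actin Acta2, which was higher in neurites (0.44), and the embryonic myosin Myh3 (0.06), which was not called.

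Noncoding RNAs were mostly on the soma side. Of 391 tested genes with noncoding accessions alone, 138 (35.3%) were higher in soma and 23 (5.88%) in neurites, with a median of −0.28. Small nucleolar RNAs, which guide the modification of ribosomal RNA in the nucleolus, had 37 of 84 higher in soma and 1, Snord55 (0.47, a call lost without CTG0 (0.0894), CTG480 (0.139), the Kif1bα tail (0.0968) or the Kif1bβ tail (0.132), limma adjusted p in brackets), in neurites, with a median of −0.80. The median of these RNAs was −0.19 in CTG480 and −1.14 to −0.75 in the other 4 transfections. Snord15b was at −2.50, Snora26 at −2.31 and Snord118, which acts on pre-rRNA, at −2.18. All 3 small nuclear RNAs tested were higher in soma, with a median of −1.66. Both ribozyme RNAs were higher in soma too: Rmrp, of the RNase MRP complex, was at −0.49 ± 0.080 (SE) and Rpph1, of RNase P, at −0.25 ± 0.067 (SE). With no minimum TPM neither was called (limma adjusted p = 0.221 and 0.343). The call of Rpph1 was also lost at a minimum of 1 TPM (0.0798) and without CTG0 (0.0639), CTG480 (0.0502) or the Kif1bα tail (0.0612), limma adjusted p in brackets. Long intergenic RNAs, with 22 of 81 higher in soma and 7 in neurites (median −0.12), and antisense RNAs, with 13 of 37 and 2 (median −0.20), shifted less. The retained neurite level was nonetheless high for some: Rmrp had 79544, 61208, 69247, 67766 and 67586 TPM in the neurite libraries against 106270.0, 99266, 93130.0, 90747 and 94013 TPM in the soma libraries.

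Of the noncoding genes at 20 TPM or more that were called with the same sign in all 5 transfections, the 3 with the highest neurite ratios were the microRNA genes Mir8112, Mir25 and Mir6392, followed by Gm6793 (0.76) and Gm10653 (0.66). The microRNAs are shown with the mature sequences that the hairpins hold, from RefSeq on GRCm38.p6, with the seed (bases 2 to 8) in capitals.
mmu-miR-8112 (chr6:71271745-71271764, plus strand): uCUCCGCCaccuccaccgca
mmu-miR-25-3p (chr5:138165332-138165353, minus strand): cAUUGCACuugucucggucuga
mmu-miR-25-5p (chr5:138165370-138165391, minus strand): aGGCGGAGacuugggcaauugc
mmu-miR-6392-5p (chr15:84168285-84168307, plus strand): uCUGGCGCccugguccugucagc
mmu-miR-6392-3p (chr15:84168334-84168356, plus strand): gACGCAGGuuugccggguccucu
The 5 seeds differ from each other, so these genes form no seed family. The rows stand for precursor hairpins of 84 to 131 nt, and reads of the genes that contain them cannot be told apart from reads of the hairpin.

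Mir6392 was at 20.9, 44.2, 37.4, 88.6 and 132 TPM in soma and 62.9, 113, 58.0, 117 and 237 TPM in neurites. Each neurite library was above the soma library of its own transfection, but the compartments overlapped, and the ratio was 0.97 ± 0.16 (SE). Without transfection as a block Mir6392 was not called (limma adjusted p = 0.135). Mir25 was at 21.2, 11.9, 14.6, 29.7 and 42.4 TPM in soma and 42.2, 36.6, 116, 92.4 and 42.7 TPM in neurites. Its ratio of 1.44 ± 0.35 (SE) rested on unequal transfections, from 0.0093 in the Kif1c tail to 2.98 in the Kif1bα tail. Mir8112 was at 14.1, 14.8, 64.3, 13.8 and 38.6 TPM in soma and 56.9, 73.2, 68.6, 108 and 59.1 TPM in neurites, with a ratio of 1.6 ± 0.39 (SE) that ran from 0.093 in the Kif1bα tail to 2.96 in the Kif1bβ tail. The limma adjusted p was 0.0504 for Mir8112 without CTG0 and 0.0551 without CTG480, and 0.05001 for Mir25 without CTG480. The genes that contain these hairpins were not called: Mcm7, around Mir25, was at 0.08 (limma adjusted p = 0.152), Krcc1, around Mir8112, at −0.17 (0.0589) and Pnpla3, around Mir6392, at −0.18 (0.128). Krcc1 was called toward soma at a minimum of 20 TPM (−0.17, limma adjusted p = 0.0499), and Pnpla3 with the correction for GC content and length (−0.31, 0.0409). Over the 48 microRNA genes tested, 4 were higher in neurites and 10 in soma with a median of −0.24, and the ratio of such a gene had a median SD over the transfections of 1.03, against 0.135 for a coding gene.

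Transcripts of the same gene could differ in place. For 1378 genes the 2 most abundant transcripts were both at 5 TPM or more, and their ratios differed at a limma adjusted p under 0.05 in 24 of these pairs (1.74%). In 23 of the 24 the 2 transcripts leaned to opposite compartments, as did 713 of all 1378 pairs. Rtn4 gave the clearest pair by p. Its transcript NM_194054, with a coding sequence of 3489 nt, was at 145, 143, 164, 152 and 153 TPM in soma and 96.0, 88.6, 109, 102 and 97.8 TPM in neurites, a ratio of −0.62 ± 0.05 (SD, n = 5). NM_194052, with a coding sequence of 1071 nt for a shorter reticulon that shares the membrane-bound C-terminal part, was at 111, 108, 92.1, 109 and 102 TPM in soma and 133, 144, 146, 146 and 125 TPM in neurites, a ratio of 0.41 ± 0.16 (SD, n = 5). The long form lay higher in soma and the short form higher in neurites in all 5 transfections, and the difference of −1.03 had a standard error of 0.11 (limma adjusted p = 0.0221).

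Of the pairs with the smallest p, Rpl38 had transcripts with the same coding sequence and different 5′ UTRs, of 117 and 203 nt, at −0.60 and 0.75. The kinase gene Pmvk had its main transcript at 0.35 and a second one at −1.08, Btf3 at −0.10 and 1.05, the ribosomal protein gene Rpl35a at −0.27 and 0.96, and the oligosaccharyltransferase gene Krtcap2 at −0.11 and 0.81. Estimates for transcripts that share most of their sequence depend on few reads, and in 4 of the 24 pairs, Hspa5 and Oaz1 among them, both accessions matched the same GENCODE model, so that no difference in structure could be given. limma called 0 pairs (277 pairs were under an unadjusted p of 0.05 with all libraries) once CTG0, CTG480, the Kif1bα tail or the Kif1bβ tail was left out, 16 without the Kif1c tail, and 0 without a trend in the variance.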

How the data were processed

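N2A cells were transfected with CTG0, CTG480 or the Kif1bα, Kif1bβ or Kif1c tail, and each transfection gave 1 soma and 1 neurite library from 300 ng of ribosome-depleted total RNA. The deposited signal values are linear TPM: per the methods and the submitters' processing notes, the authors used bcl2fastq 2.20 for base calls, kallisto 0.43.0 against RefSeq transcripts of mm10, and cyclic loess between libraries. No counts were used and the depth is unknown. All 10 columns were mapped to samples, and 0 columns of per-sample values were left unmapped. A second deposited table holds the authors' log2 ratios between libraries, which are their own comparisons and were not used.

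Transcript TPM were added up by gene, 5 plasmid rows and 3 rows without a gene were dropped, and 17292 transcripts of 13698 genes remained. The 9853 genes with a mean of at least 5 TPM were fitted on log2(TPM + 0.1) with limma 3.58.1 in R 4.3.3 (lmFit, eBayes with a trend), neurite against soma blocked by transfection; the test was 2-sided, and calls were made at 0.05 after Benjamini-Hochberg adjustment. A fold change on this scale understates the change of low genes. The 2 most abundant transcripts of a gene, both at 5 TPM or more, were compared by limma on the 5 differences of their ratios. The soma and neurite libraries of a transfection share a number because they come from the same cells on the same inserts; across genes, Pearson's r of their deviations from the group means was −0.03 to 0.05 for these 5 pairs and −0.12 to 0.10 for the 20 other pairs. Coding sequences, GC content and coordinates came from GENCODE M21 on GRCm38 and microRNAs from RefSeq on GRCm38.p6. Proteins were translated for 9363 genes, and their letters are not shown. Python 3.11.15 with numpy 2.4.6, pandas 2.3.3, biopython 1.88 and matplotlib 3.10.9 was used for the rest. The fits were tested on simulated data.

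Genes were named by rule: the 15 coding genes with the largest difference each way and the 5 noncoding genes, called, of 1 sign throughout the 5 transfections and at 20 TPM or more; the 10 coding genes with the smallest p each way; the 10 with the highest TPM; up to 4 members of a list and members that did not pass; the 8 isoform pairs of opposite sign with the smallest p; and cell type markers. Other members named beside these, such as the KDEL receptors, were chosen after their values had been seen. The members, lists and classes were chosen with earlier results of these data known, so their counts are descriptions beside those over all genes. A few genes the rule names are not reported here. Alternatives were another pseudocount, other minimums, no block, the most abundant transcript alone, no trend, other scalings, leaving out each transfection, and a GC and length correction.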

Additional observations from a re-analysis of the deposited data

Results flagged for a closer look

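For the 198 genes named above, the localization ratio of 1 transfection stood apart from the other 4 for 14 genes by Dixon's test for 5 values, which chance alone gives for about 1 in 20 groups of values. In the Kif1bα tail transfection the ratio was closer to 0 than in the others for L1cam (−0.38 against −0.83 to −0.75), Tmem30a (−0.41 against −0.60 to −0.57), Rnf139 (−0.18 against −0.42 to −0.35) and 1810037I17Rik (0.19 against 0.75 to 0.89). In CTG480 it was lower for Rab13 (0.42 against 0.77 to 0.84), Hook3 (−0.55 against −0.30 to −0.21) and Rmrp (−0.70 against −0.48 to −0.42) and higher for Rpl41 (0.31 against 0.12 to 0.17). In the Kif1bβ tail it was lower for Dld (−0.27 against −0.11 to −0.088) and Spcs3 (−0.45 against −0.29 to −0.26). In the Kif1c tail it was lower for Cyb5r3 (0.40 against 0.76 to 0.89), Pfkp (−0.058 against 0.11 to 0.15) and Uggt1 (−0.67 against −0.46 to −0.40) and nearer 0 for Snrpd1 (−0.029 against −0.34 to −0.29). Of 37 groups of genes, 1 stood apart in the same way: the median ratio of the 9 tested neuronal markers was 0.10 in the Kif1c tail and −0.091 to −0.038 in the other transfections. None of these differences has a replicate check.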

How the results depend on the processing

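With every column scaled to the same sum, 7093 genes were called for neurites and 203 for soma, with 5418 genes without a segment higher in neurites, 57 with 2 or more segments, 22 with a segment near the N terminus and 3 with a KDEL-type end higher in soma, and 38 with a CAAX end higher in neurites; by construction this setting adds 0.34 to the median ratio, 176 of the 1835 soma calls then turned into neurite calls, and relative to that shift 1484 and 1405 genes were called. A minimum of 20 TPM leaves fewer genes to test and gave 342, 16 and 11 genes for 2 or more segments, the KDEL-type end and the CAAX end. Leaving out 1 transfection in turn gave 1281 to 1707 genes higher in neurites and 1357 to 1646 in soma, 419 to 517 soma calls with 2 or more segments, 146 to 171 with a segment near the N terminus, 20 to 22 KDEL-type and 12 to 15 CAAX calls, 1042 to 1356 neurite calls without a segment, and 0 to 16 isoform pairs. Isoform pairs numbered 8 at a minimum of 1 TPM and 0 without a trend, and the cause was not tested. Without the replicate block 2103 genes were called for neurites and 1965 for soma, of which 1819 and 1762 were shared with the fit that has the block. The correction for GC content and length, chosen after seeing the data, gave 1965 and 1679 of 9412 genes, 1440 and 1320 of them shared. Among named genes it took away the calls of Atp6ap2, Dctn3, Dld, Hook3, Iars, Pfdn4, Rab6a, Rpl41, Rps18, Srsf6, Tpr, Trim59, Wdr43 and Zfp771 and gave calls to Alg13, Ctsz, Itgb5, Pfkp, Pnpla3, Rps26 and Unc5a. The sign turned, in genes that were not called, for Cdc42 with that correction (0.039), Cln3 without the Kif1bβ tail (0.0042) and Plxnd1 without CTG480 (0.013). With the most abundant transcript alone, Btg3 was at 2.41 and, like Dld, Iars, Rab28, Rps18 and Snord55, was not called, while Rhoa and Unc5a were. Without the block Mir6392, Pfdn4, Snord55 and Wdr45 were not called, and Ctsz and Rps26 were. The pseudocount of 1 TPM changed no call among the 198 named genes.

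Each transfection has 1 library per fraction from an experiment done once, all cells were transfected, and the read depth is unknown. Loess sets the middle of all genes to 0, so a general shift between compartments does not show. TPM of transcripts that share sequence are estimates.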

Other observations

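Families of genes that share the start of their symbol, grouped with no other knowledge, gave further counts. Of 248 genes named Zfp, which encode zinc finger proteins, 71 were higher in soma and 20 in neurites by limma, with a median localization ratio of −0.10 against 0.01 over all genes. The ratios of the family ran from −1.67 to 0.46. Zfp457 (−0.99), Zfp935 (−0.72) and Zfp65 (−0.64) were among the lowest, and Zfp771 (0.39) and Zfp428 (0.37) among the highest. With the correction for GC content and length Zfp771 was at 0.15 and was not called. Many of these genes have low GC content: 125 lay in the lowest quartile of GC, where 48.0% were higher in soma against 26.9% of the other genes of that quartile. In the other 3 quartiles, from low to high GC, the order was the reverse, at 12.8 against 19.1%, 10.7 against 14.2% and 2.27 against 10.4%. Zinc finger genes of one cluster share sequence, and reads may be divided among them.

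Some families of cytosolic and nuclear proteins, with repeat or ring domains, lay on the other side. Other families did not: the medians of the Cep, Rbm, Zbtb and Usp genes were −0.03, −0.03, −0.03 and 0.0019. Of 46 Wdr genes, which encode WD-repeat proteins, 15 were higher in neurites and 1, Wdr43 (−0.18), in soma, with a median of 0.13, and Wdr45 was at 0.51 (not called without transfection as a block, limma adjusted p = 0.058) and Wdr4 at 0.42. Of 29 Trim genes, which encode ubiquitin ligases, 12 were higher in neurites and 1, Trim59 (−0.24), in soma, with a median of 0.15, and Trim45 was at 0.56 and Trim47 at 0.47. Trim59 is one of the few Trim proteins with a membrane anchor. Of 55 Rnf genes, also mostly ubiquitin ligases, 17 were higher in neurites, with Rnf141 at 0.72, and the median was 0.06. In soma 6 were higher, among them the membrane-anchored Rnf13 (−0.46) and Rnf139 (−0.35). Of 115 Tmem genes, named for membrane segments, 41 were higher in soma, with Tmem131 at −0.57 and Tmem30a at −0.55, and 7 in neurites, with Tmem160 the highest. Of the 4 Slc genes outside Slc25 that were higher in neurites, Slc9a3r1 (0.47) encodes a soluble scaffold and not a transporter.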
